A study of Equus caballus with 14 samples.

Results

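Glands of pregnant and non-pregnant mares were compared on day 13 after ovulation, in 6 of the 14 libraries of a poly(A) RNA-seq series on the equine corpus luteum. Members were taken by the status and day in the labels: 2 libraries of pregnant mares (P13) and 4 of non-pregnant mares (NP13). All came from healthy, normally cycling mares of light breeds, and the labels name no treatment, genotype or age. P13 replicate 1 is the first gland of the mare Emma and P13 replicate 2 the gland of Cornelia. NP13 replicates 1 to 4 are the first gland of Kate, the gland of Kiwi, the second gland of Kate and the second gland of Emma. The other 8 libraries are day 11 biopsies, 4 pregnant (P11) and 4 non-pregnant (NP11), and enter here to estimate the spread and to give the same gland's earlier value. Each of the 6 glands had already been biopsied on day 11, so no day 13 value comes from a gland without a needle passage before it.

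The corpus luteum is the progesterone-secreting gland that the ovulated follicle turns into. In a mare without a conceptus the uterus releases prostaglandin F2α near the end of dioestrus, and the gland stops secreting and regresses. In a pregnant mare the embryonic vesicle moves about the uterus, that release is held back, and the gland goes on secreting. Day 13 falls in the period when a mare's gland is kept or lost, and the series was made to look for genes that stay stable over pregnancy status and day.

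The origin of the libraries bears on every value below. NP13 replicate 1, although non-pregnant by its label, is the same gland as a day 11 library with the label pregnant (P11 replicate 2), and which label describes the gland is not known. The main gene counts and fold changes are therefore given with and without it. Comparisons given once include it unless stated. The 6 libraries come from 4 mares, and Emma is the only mare on both sides of the comparison. Her pregnant gland was sampled in June and her non-pregnant gland in August, whereas Cornelia was sampled in August and the glands of Kate and Kiwi in June.

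P13 held 30551956 ± 2311929 counts per library (SD, n = 2) and NP13 held 23582876 ± 2796267 counts (SD, n = 4). The P13 libraries were both deeper than every NP13 library, and the two-sided exact permutation test over the 15 possible splits gave its smallest attainable p, 0.0667 (0.2 adjusted over 6 library measures). Without NP13 replicate 1 the same test gave an unadjusted p of 0.2 over 10 splits, where 0.1 is the smallest attainable. Genes with at least 1 count numbered 18075 and 18290 in P13 and 17639 to 17870 in NP13, so the deeper group held more of them, and the part of depth in this was not tested. Genes at 1 CPM (counts per 1000000 counts of the library) or more, a measure less tied to depth, numbered 12807 and 13155 in P13 and 12644 to 12961 in NP13, and these ranges overlap (exact permutation p = 0.4). The 100 most abundant genes took 40.1% and 35.7% of the counts in P13 and 36.0% to 39.3% in NP13. The single most abundant gene was the same in all 14 libraries and took 4.53% and 3.09% in P13 against 2.99% to 3.97% in NP13. Genes carry Ensembl identifiers in the deposited table, and the reference table at hand gave a symbol for 0 of them. The tissue label could not be checked against marker genes for that reason, and genes are given by identifier.

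By the quasi-likelihood test of edgeR, 0 of 15437 genes (0%) differed between P13 and NP13 at an adjusted p of 0.05. DESeq2 and limma voom with the mare as a random block also called 0. At an unadjusted p under 0.05 edgeR gave 309 genes (2%), of which 143 were higher in P13 (0.926%) and 166 lower (1.08%). Without NP13 replicate 1 the counts were 0 past the adjusted threshold and 220 (1.42%) at the unadjusted one, 96 higher and 124 lower. DESeq2 gave 389 at the unadjusted threshold and limma voom 356. If no gene differed, a fraction of 0.05 of the genes tested would be expected under that threshold. Each of these counts lies below that fraction, and the genes are given as a description. In simulated libraries with the same means, depths and spread, the test recovered 60% of the genes given a 2-fold change and 90% of those given a 4-fold change, with 15191 genes tested and 50 altered at each of 4 fold sizes, all with a mean of 1 CPM or more. These simulated libraries carried no mare structure. In whole tissue, fewer cells of a type and less RNA per cell cannot be told apart, and this holds for every gene below.

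**Figure D1:**
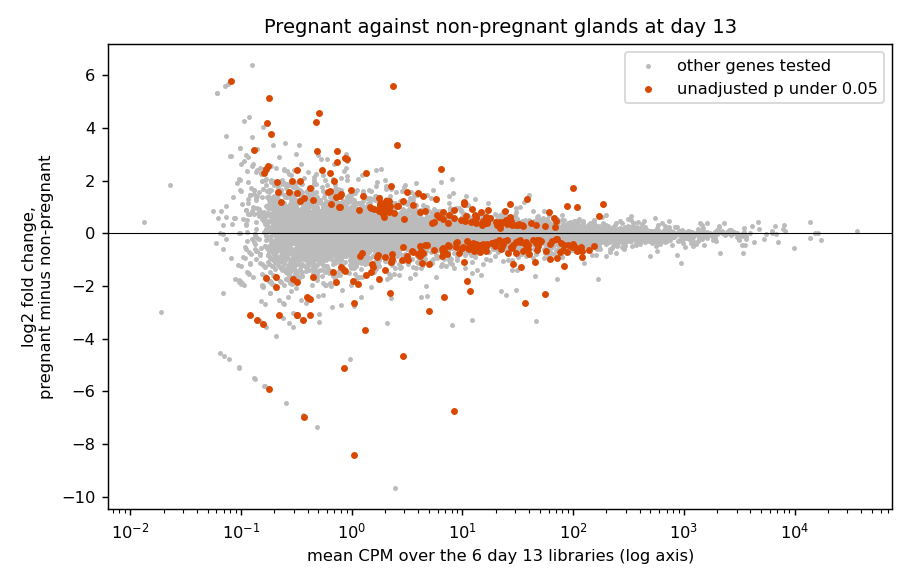
Log2 fold change of P13 over NP13 (vertical axis) against the mean CPM over the 6 day 13 libraries (horizontal log axis), 1 point per gene tested; genes with no count at day 13 are not drawn. The 309 genes at an unadjusted p under 0.05, drawn in orange, lie on both sides of 0, and the vertical scatter of all genes narrows towards high abundance.

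The genes at an unadjusted p under 0.05 were mostly of low or moderate abundance. Of the 143 higher in P13, 89 had a mean under 10 CPM, and the median log2 fold change was 0.96. Of the 166 lower in P13, 79 had a mean under 10 CPM, and the median log2 fold change was -0.67. Their share was 2.66% of the 2443 genes under 1 CPM and 2.31% of the 4454 genes from 1 to under 10 CPM. It was 1.85% of the 7099 genes from 10 to under 100 CPM and 0.694% of the 1441 genes at 100 CPM or more. In the most abundant class 3 genes were higher and 7 lower.

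Which library was present set how many genes reached the unadjusted threshold. The count was 692 without P13 replicate 1, the gland of Emma, and 599 without NP13 replicate 4, the other gland of Emma. In both cases no mare stood on both sides of the comparison any longer. The count was 268 without P13 replicate 2, 299 without NP13 replicate 2 and 307 without NP13 replicate 3. Of the 309 genes, 163 were also among the 220 found without NP13 replicate 1, and 56 among the 268 found without P13 replicate 2. In all of these fits 0 genes passed the adjusted threshold.

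**Figure D2:**
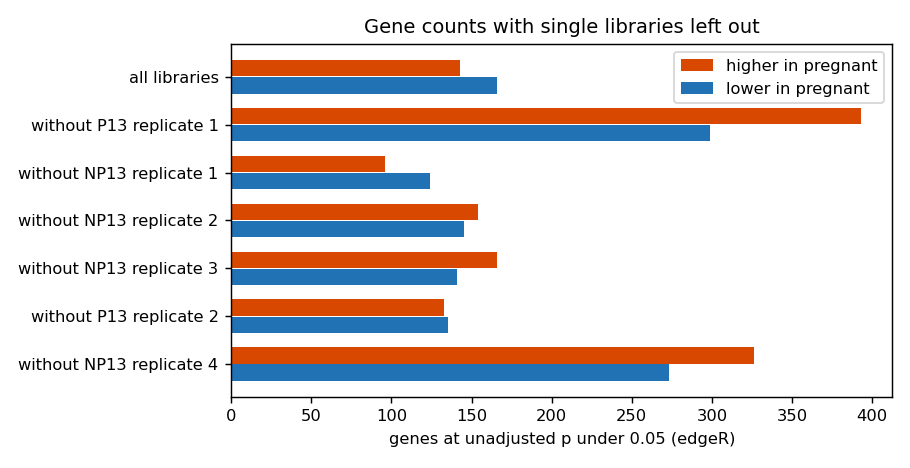
Genes at an unadjusted p under 0.05 in edgeR (horizontal axis), higher (orange) and lower (blue) in P13, with all libraries and with each day 13 library left out. Leaving out either library of Emma gave the longest bars, 692 and 599 genes in all.

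Among genes higher in P13 at 1 CPM or more on average, the smallest p belonged to ENSECAG00000011854. It stood at 15.2 CPM in Emma's pregnant gland and 18.3 CPM in Cornelia's, and at 5.94, 5.83, 10.1 and 7.34 CPM in NP13 replicates 1 to 4. Both pregnant glands lay above all non-pregnant glands, and the highest NP13 value was in the second gland of Kate. The log2 fold change was 1.20 ± 0.29 (SE; edgeR adjusted p = 0.999), and 1.11 ± 0.31 (adjusted p = 1) without NP13 replicate 1. Over all alternatives the adjusted p ran from 0.688 to 1.

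On day 11 the same glands had started close together. The gene stood at 4.85 CPM in Emma's pregnant gland and 3.65 CPM in Cornelia's, against 4.52, 4.58, 4.96 and 4.68 CPM in the glands that became NP13 replicates 1 to 4. The log2 difference of day 13 over day 11 was 1.63 and 2.30 in the pregnant glands and 0.39, 0.34, 1.02 and 0.64 in the others, positive in all 6. Gisela, a mare sampled on day 11 alone and labelled pregnant, had the highest day 11 value at 8.49 CPM. The pregnancy difference on day 13 exceeded that on day 11 by 0.98 on the log2 scale, with an unadjusted p of 0.0226 and an adjusted p of 1 in edgeR. The gene was picked for its day 13 p. The same day 13 values enter this test and the differences that follow, so none of them is separate support. Within Emma the pregnant gland was 1.04 above the non-pregnant gland on the log2 scale, and Cornelia was 1.37 above the mean of the other 3 non-pregnant libraries.

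ENSECAG00000021775 had the largest fold in the same direction among genes at 10 CPM or more on average and an unadjusted p under 0.05. It stood at 123 CPM in Emma's pregnant gland and 250 CPM in Cornelia's, against 16.9, 43.6, 90.9 and 72.5 CPM in NP13 replicates 1 to 4. The groups did not overlap, but the NP13 values spanned a wider ratio than the step from the highest of them to Emma. The log2 fold change was 1.74 ± 0.68 (SE; edgeR adjusted p = 0.999), and 1.43 ± 0.65 (adjusted p = 1) without NP13 replicate 1. It was 1.14 (adjusted p = 1) without P13 replicate 2, the library of Cornelia.

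All glands but 1 held more of this transcript on day 13 than on day 11. On day 11 it stood at 15.7 and 7.58 CPM in the pregnant glands of Emma and Cornelia, and at 13.0, 6.09 and 16.8 CPM in the glands of Kiwi, Kate (second) and Emma (second). Day 13 exceeded day 11 by 2.96 and 5.03 on the log2 scale in the pregnant glands and by 1.74, 3.88 and 2.10 in these non-pregnant ones. The first gland of Kate stood apart from the other 5 with 18.1 CPM on day 11 and 16.9 CPM on day 13, a log2 difference of -0.09. Of the libraries labelled pregnant on day 11, Gisela had the highest value of that day at 45.1 CPM, and the log2 fold change of P11 over NP11 was 1.10 ± 0.60 (SE; edgeR adjusted p = 1). The difference between the pregnancy effects of the days was 0.63 on the log2 scale, and edgeR gave it an adjusted p of 1.

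ENSECAG00000023115 was the gene lower in P13 with the smallest p. It stood at 5.71 CPM in Emma's pregnant gland and 7.14 CPM in Cornelia's, against 9.50, 12.5, 10.9 and 9.83 CPM in NP13 replicates 1 to 4. The groups did not overlap, and each was narrow. The log2 fold change was -0.73 ± 0.17 (SE; edgeR adjusted p = 0.999), and -0.78 ± 0.18 (adjusted p = 1) without NP13 replicate 1. The adjusted p ran from 0.625 to 1 over all alternatives.

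The separation of these glands was already present on day 11, unlike that of ENSECAG00000011854. The glands of Emma and Cornelia then stood at 6.70 and 6.83 CPM, and the glands of NP13 replicates 1 to 4 at 9.26, 10.2, 9.59 and 9.55 CPM. The first gland of Kate, labelled pregnant on that day, lay close to the non-pregnant glands on both days but below each of them. Of the mares sampled on day 11 alone, Gisela, labelled pregnant, stood at 7.79 CPM and Roanie, labelled non-pregnant, at 9.51 CPM. The log2 difference of the pregnant over the non-pregnant gland was -0.78 within Emma, and that of Cornelia over the mean of the other 3 non-pregnant libraries was -0.60. The difference between the pregnancy effects of the days was -0.39 on the log2 scale, with an adjusted p of 1 in edgeR.

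ENSECAG00000034028 had the largest fold among the genes lower in P13 at a mean of at least 10 CPM and an unadjusted p under 0.05. It stood at 12.4 CPM in Emma's pregnant gland and 4.02 CPM in Cornelia's, against 12.8, 138, 38.0 and 15.4 CPM in NP13 replicates 1 to 4. The higher P13 value lay just under the lowest NP13 value, and the mean of NP13, 51.0 ± 59.0 CPM (SD, n = 4), rested on Kiwi. On day 11 Kiwi stood at 103 CPM and Cornelia at 3.21 CPM, again the highest and lowest of the 6 glands. Of the mares sampled on day 11 alone, Roanie, labelled non-pregnant, stood at 7.29 CPM and Gisela, labelled pregnant, at 11.7 CPM. The glands of Kate differed from each other on both days, at 12.1 and 26.9 CPM on day 11 and at 12.8 and 38.0 CPM on day 13. The log2 fold change was -2.63 ± 1.17 (SE; edgeR adjusted p = 0.999), and -2.95 ± 1.16 (adjusted p = 1) without NP13 replicate 1. It was -3.64 without P13 replicate 1, -1.43 without NP13 replicate 2, the library of Kiwi, and -0.55 in a fit with a fixed term for the mare, with adjusted p-values of 0.998, 1 and 1 in edgeR.

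**Figure D3:**
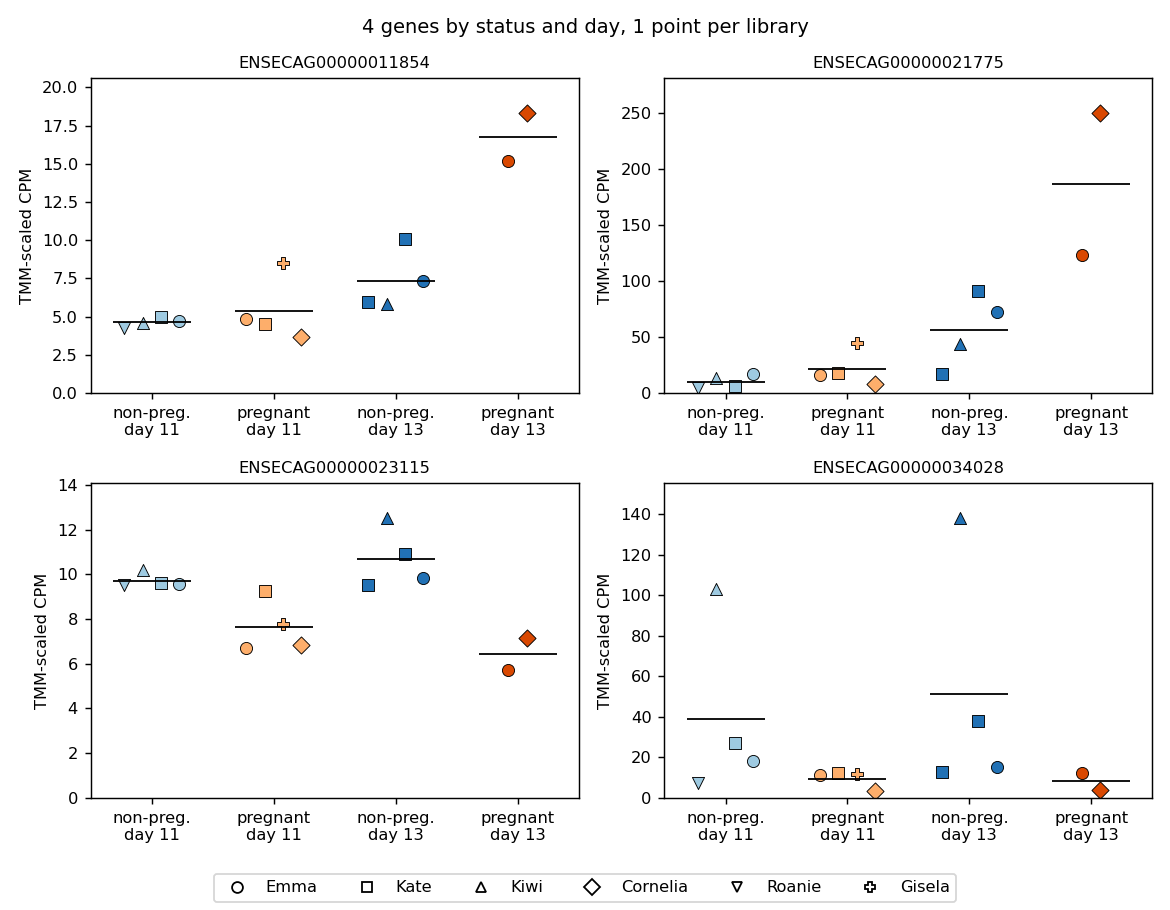
TMM-scaled CPM (vertical axes, from 0) of the 4 genes in each library, by status and day; the marker gives the mare and the line the group mean. The P13 libraries lie above all NP13 libraries for ENSECAG00000011854 and ENSECAG00000021775 and below them for the other two genes, and in ENSECAG00000034028 the library of Kiwi, at 138 CPM, sets the NP13 mean.

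Across all genes tested, the P13 and NP13 values of 1445 genes (9.36%) did not overlap, 665 with both pregnant glands above (4.31%) and 780 with both below (5.05%). With NP13 replicate 1 left out, 1880 genes (12.2%) did not overlap. If status had no effect and libraries were independent, a fraction of 0.0667 of genes would be expected in each direction. Without NP13 replicate 1 that fraction would be 0.1. The shares found lie below these in each direction, with and without that library. Of the 309 genes at an unadjusted p under 0.05, 241 were among the 1445. Few of these separations were wide. Of 8540 genes at 10 CPM or more on average, 746 had groups that did not overlap, and 17 of those had a fold change of 2 or more, 6 higher and 11 lower in P13. The log2 fold changes of these 17 ran from 1.10 to 1.74 and from -1.08 to -2.63. Cornelia was the higher of the P13 libraries in 5 of the 6 genes. Among the 11 lower genes the highest NP13 value was in the second gland of Kate for 6, in Kiwi for 3, in the first gland of Kate for 2 and in Emma for 0.

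Presence on one side alone was looked for next. With a minimum of 10 counts in each library of one group and 0 counts in each library of the other, 0 genes were found in P13 alone and 0 in NP13 alone, also with NP13 replicate 1 left out, against 13107 genes with at least 10 counts in all 6 libraries.

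The precision of the comparison depended on abundance. The intervals here come from the fit without a mare block, which treats libraries of 1 mare as independent. No shares are given for a fit with a block. The 95% confidence interval of the fold change lay within 2-fold in either direction for 90.6% of the 8540 genes at 10 CPM or more and within 1.5-fold for 66.5%. From 1 to under 10 CPM the shares were 51.1% and 15.1%, and under 1 CPM the share within 2-fold was 0.696%. The median half-width of the interval was 0.37 on the log2 scale at 10 to under 100 CPM and 1.69 under 1 CPM. At 10 CPM or more the median size of the fitted group difference was 0.10 on the log2 scale, and that of the difference between the single libraries of Emma and Cornelia, both pregnant, was 0.20. Without P13 replicate 1 the share within 2-fold was 80.4%, and without NP13 replicate 1 it was 89.7%.

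Pairs of single libraries were then compared by the number of these 8540 genes that differed over 2-fold. Across status and between different mares the number ran from 215 to 323 over 7 pairs, with a median of 242. Between libraries of the same status and different mares it ran from 211 to 418 over 6 pairs, with a median of 275. These ranges overlap, and Emma and Cornelia, both pregnant, differed in 256 genes. The 15 pairs share libraries, and the numbers are given as a description. The lowest number of all day 13 pairs, 62, was found between the pregnant and the non-pregnant gland of Emma. The glands of Kate, both labelled non-pregnant on day 13, differed in 188 genes. The same gland on day 11 and day 13 differed in 26 to 196 genes over the 6 glands, so 1 mare's pregnant and non-pregnant glands lay within the range of a single gland over 2 days.

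**Figure D4:**
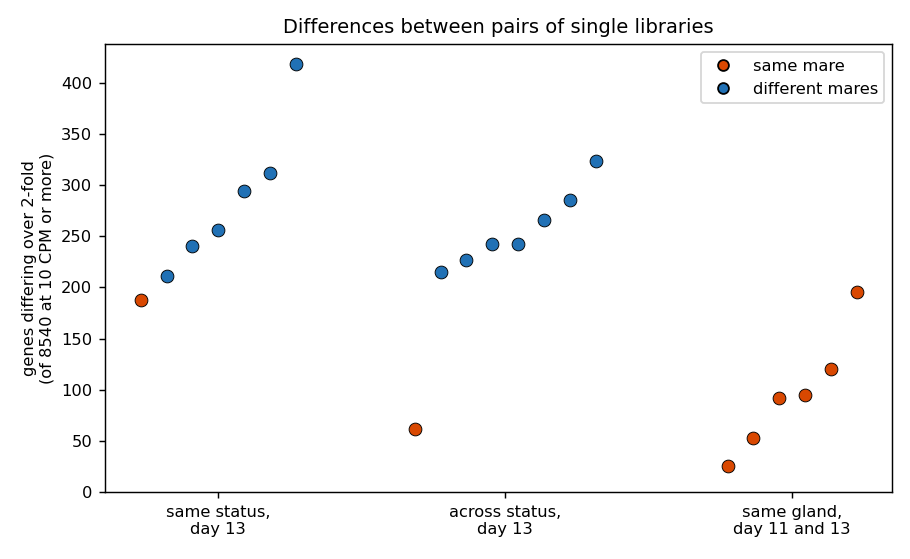
Number of genes differing over 2-fold between 2 libraries (vertical axis, of 8540 genes at 10 CPM or more), for pairs of the same status, pairs across status and the same gland on both days; orange marks pairs from the same mare. Pairs of different mares lie between 211 and 418 whether or not the status is shared, and the pair across status within Emma lies at 62.

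The comparison can be divided into parts that have no library and no mare in common: the pregnant against the non-pregnant gland of Emma, and Cornelia against the glands of Kate and Kiwi. Of the 62 genes over 2-fold within Emma, 40 were higher and 22 lower in the pregnant gland. In the other part 155 genes differed over 2-fold, 79 higher and 76 lower in Cornelia. Of the 62, 24 (38.7%) had the same direction in Cornelia, against 47.2% of all 8540 genes, and without NP13 replicate 1 the shares were 19.4% and 44.5%. Over 2-fold in both parts were 13 genes. Of these 8 had the same direction in both, 5 higher and 3 lower, which is 12.9% of the 62 and 5.16% of the 155. Across the 8540 genes the differences correlated with r = -0.05 (Spearman's rho = -0.06), a description over genes that are not independent replicates. June and August are reversed between the parts, since the pregnant gland is the June library in Emma and the August library in Cornelia. Whether month takes part in the low share was not tested. With month as a covariate, edgeR called 0 genes and gave 243 at an unadjusted p under 0.05.

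**Figure D5:**
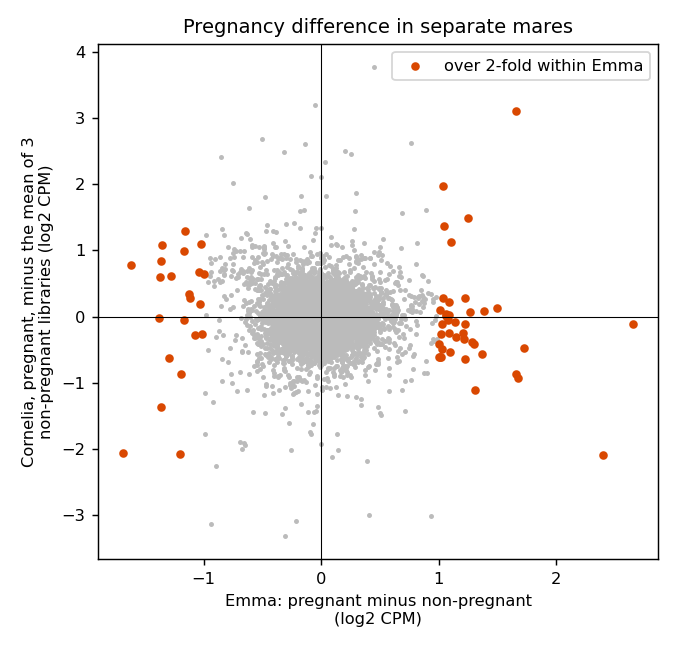
Log2 CPM difference of Emma's pregnant over her non-pregnant gland (horizontal axis) against that of Cornelia over the mean of the 3 other non-pregnant libraries (vertical axis), 1 point per gene at 10 CPM or more. Of the 62 genes over 2-fold within Emma, in orange, 24 lie in the quadrants where both differences have the same sign.

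Finally, each day 13 library was left out of the fit, and the genes at an unadjusted p under 0.05 in the remaining libraries were read in it. For NP13 replicate 1, 34.7% of 219 such genes lay nearer the P13 mean than the mean of the other NP13 libraries, against 40.3% of all genes. For NP13 replicates 2 and 3 the shares were 52.5% of 299 and 51.3% of 306, against 51.5% and 46.9% of all genes. For NP13 replicate 4, from Emma, 75.4% of 598 genes lay nearer P13, which holds her other gland, against 59.1% of all genes. The pregnant libraries lay nearer NP13: 10.8% of 659 genes in P13 replicate 1 and 12.3% of 253 in P13 replicate 2 lay nearer the other pregnant gland, against 34.7% and 39.6% of all genes. In these last cases the pregnant side is a single library, so the genes are those in which that library stood out.

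The first gland of Kate was read in the same way with both of its libraries left out of the fit, which gave 241 genes. Its day 13 library, labelled non-pregnant, lay nearer the P13 mean for 26.6% of them, and its day 11 library, labelled pregnant, for 24.5%. Over all genes the shares were 40.3% and 39.8%. The gland thus lay nearer the NP13 mean on both days for most of these genes, and also for most of all genes. The genes were picked for a difference between the P13 and NP13 means. The libraries labelled pregnant also lay nearer NP13 when left out. This reading therefore cannot decide which label describes the gland. The NP13 mean includes the second gland of Kate, and the part of the mare in this was not tested. Both means are of day 13 libraries, and the part of the day in the reading of the day 11 library was not tested.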

How the data were processed

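The authors deposited raw read counts per Ensembl gene from directional poly(A) libraries, per the labels' protocols. Trim Galore, STAR and the build EquCab3.0 are named in the submitters' processing notes. Versions, the counting tool and its handling of near-identical genes are not given in the sources. Status, day, mare and gland come from the titles; replicate numbers follow sample order and pair nothing. Libraries of 1 mare are not independent, and p-values and intervals without a block do not allow for that. Deviations from group means correlated at 0.03 to 0.52 over 6 pairs from the same gland. They correlated at 0.19 to 0.46 over 7 of the pairs from different glands of a mare, not all of them.

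edgeR 4.0.16 in R 4.3.3 (filterByExpr, TMM, quasi-likelihood F test) was fitted to all 14 libraries with 1 mean per group, because P13 holds 2 libraries, and p-values were adjusted by Benjamini and Hochberg over 15437 genes, which hold 99.974% of the counts. CPM values are TMM-scaled, and log2 CPM used a prior count of 2. DESeq2 1.42.0 and limma 3.58.1 were alternatives. Scripts were tested on simulated counts. The comparison, the alternatives and the rule for genes were chosen with earlier results of these data known. Because no symbol was available, the rule named, per direction, the gene with the smallest p at 1 CPM or more. It also named the gene with the largest fold among those at 10 CPM or more and an unadjusted p under 0.05. The planned gene lists and cell type markers were not used. The comparisons of pairs, the division by mare and the reading of left-out libraries were chosen after the data were seen.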

Additional observations from a re-analysis of the deposited data

Results flagged for a closer look

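In 15 sets of values from groups of 4 libraries, 2 single values were set apart from the other 3. Each was judged by its gap as a share of the range of its set, and chance sets apart about 1 in 20. ENSECAG00000034028 was at 3.21 CPM in P11 replicate 4, the day 11 biopsy of Cornelia, against 11.3 to 12.1 CPM in the other pregnant glands of that day, and Cornelia also held the lowest day 13 value. ENSECAG00000023115 was at 10.2 CPM in NP11 replicate 2, the day 11 biopsy of Kiwi, against 9.51 to 9.59 CPM, and Kiwi also held the highest day 13 value. The step is small because these other values lie close together. The value of 10.2 CPM rested on 304 counts, and the part of counting noise in it was not estimated.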

How the results depend on the processing

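The count of genes past an adjusted p of 0.05 was 0 under all 16 alternatives: DESeq2, limma voom, RLE size factors, both other filters on low counts, month as a covariate, the 6 libraries alone, the data without the first gland of Kate, each library left out, the mare as a fixed block, and the 5 libraries described below. As replicate numbers pair nothing, the mare was used as the block; at an unadjusted p under 0.05 it gave 435 genes, 74 of them among the 309 of the unblocked fit. With the mare as a random block limma voom gave 356. With single libraries left out, that count ran from 220 to 692, the number of genes whose groups do not overlap from 1880 to 6229, and the share of intervals within 2-fold from 80.4% to 89.7%. Fewer libraries make non-overlap easier by construction. All 64 fold changes of the 4 genes kept their direction and stayed short of the threshold. Added after the data were seen were the 5 libraries without NP13 replicate 1 alone, which gave 248 genes at that threshold, and scaling by library totals alone within Emma, with 58 genes over 2-fold in place of 62. That scaling gave 698 higher and 673 lower genes whose groups do not overlap. Under 1 CPM 0.696% of genes had an interval within 2-fold, and the share of counting noise in this was not estimated.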
